A study of Macaca fascicularis with 6 samples.

Results

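The epithelium of the cornea from wild-type cynomolgus monkeys (Macaca fascicularis) was compared between day 3 and day 1 after corneal injury. The comparison took the 4 injured samples of the 6 in the series, 2 at each day, and 4913 of 7895 cell barcodes, and it asked which early changes had turned back by day 3 and which genes rose late. The 2 uninjured samples (day 0) are given beside them to show where a gene started and to define the early changes. They were also part of the fit, where they added to the estimate of the spread. The labels name no agent other than the injury, and all groups are wild-type. Cells were captured in droplets, and each deposited value is the count of a gene in a barcode. Counts were summed over all barcodes of a sample, because barcodes of 1 sample are not replicates. A level is given as CPM, counts scaled to a common size after each library total was multiplied by its TMM factor, estimated by edgeR. That factor was highest before injury (1.19 for each library) and lowest at day 3 (0.888 and 0.891). Levels compared between days therefore depend on it, and a CPM value is not a share of the raw total. Sample values are given as replicate 1 and then replicate 2. The labels do not say whether samples came from different animals, so a p-value here reflects the spread of these libraries alone, and that spread may be technical. Day and library preparation cannot be told apart.

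Depth differed by day. Totals were 4928103 and 3733442 counts in 1482 and 1267 barcodes at day 1, and 4894181 and 4584176 counts in 1096 and 1068 barcodes at day 3. The median barcode held 3258 and 2931 counts at day 1 and 4447 and 4145 at day 3, while mitochondrial transcripts took 7.23% and 7.28% against 4.52% and 4.39% of counts. In such sums, more cells of a type and more RNA per cell cannot be told apart. The gene tables leave out most genes seen in only a few barcodes. A gene with no count is therefore called not listed, with no fold change. Of 43 ribosomal protein genes in the list used here, 18 were listed in no sample. Absence from all samples therefore does not show that a gene was not expressed.

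A corneal wound closes when epithelial cells at its edge flatten and move over a provisional matrix that contains fibronectin, and the sheet then divides and stratifies again. Keratins report the state of these cells: KRT3 and KRT12 belong to differentiated corneal epithelium, KRT5 and KRT14 to basal cells of stratified epithelia, and KRT6A, KRT16 and KRT17 to epithelium under injury or stress. Markers of the labelled cell type were present at both days. KRT12 was at 13612 and 14514 CPM at day 1 and 10414 and 10499 at day 3, and KRT3 at 3196 and 3540 against 2245 and 2137. In these sums both were slightly lower at day 3, by 0.43 ± 0.07 (SE) and 0.62 ± 0.08 on the log2 scale. The aldehyde dehydrogenase ALDH3A1, a major soluble protein of the cornea, was at 8378 and 9104 against 8535 and 7881. That change did not pass the test. The sums do not show the typical barcode. Among barcodes deep enough for the thinning described below, the median KRT12 share of counts was 1.34% and 1.54% at day 1. It was 0.0913% and 0.0832% at day 3. The uninjured medians were far apart, at 0.609% and 0.0687%, and these medians carry no test.

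Of 12294 genes tested, 7294 differed between the days (59.3%): 3750 were higher at day 3 than at day 1 (30.5%) and 3544 were lower (28.8%), by edgeR's quasi-likelihood test at an adjusted p under 0.05. The spread between replicates was small but uneven. The chi-square per degree of freedom between replicate counts was 4.79 at day 1, 2.13 at day 3 and 1.95 in uninjured samples. The fit estimated the spread over all groups together. Because that spread was small, a second test asked which changes exceeded 2-fold: 1004 genes were higher (8.17%) and 584 lower (4.75%). Of these, 212 of the rises were not listed in either day 1 table and 86 of the falls were not listed in either day 3 table. Restricted to the 11281 genes with a count in all 4 injured samples, an alternative chosen after seeing the data, the counts were 702 and 476. DESeq2 called 386 and 213 past 2-fold. Both day 3 samples lay above both day 1 samples for 40.8% of genes and below for 38.6%. Over all genes tested the log2 change had a median of 0.02, and adjusted p-values below are from edgeR. Counts of list members below are to be read beside the shares of all genes, 30.5% higher and 28.8% lower. No list was tested as a set.

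**Figure D1:**
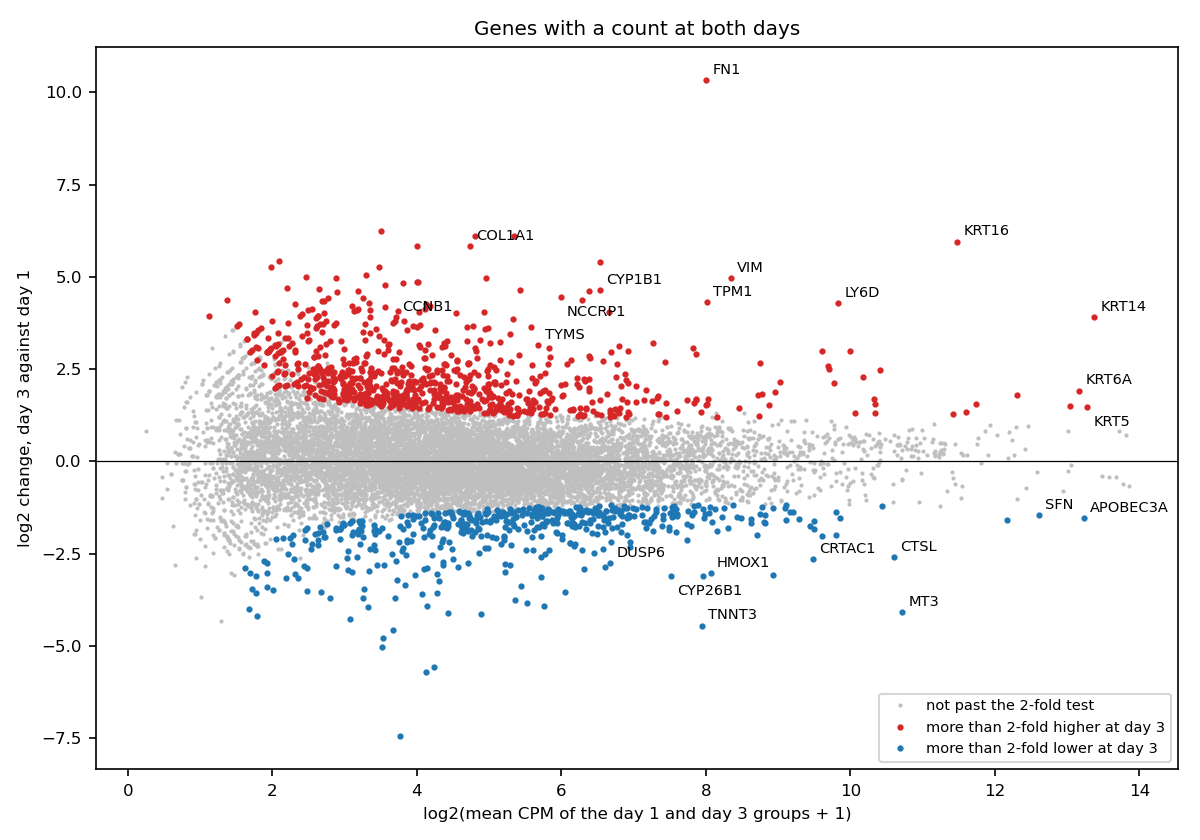
Each point is a gene with a count at both days; the x axis is log2 of the mean CPM of the day 1 and day 3 groups plus 1, and the y axis is the log2 change at day 3 against day 1. Coloured points passed the 2-fold test; KRT14, KRT16, LY6D and VIM stand among the highest at their level and MT3 and TNNT3 among the lowest, and FN1 rests on 3 counts at day 1.

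Keratins of stressed and basal epithelium made the rises that carried most counts. KRT16, a keratin of injured and fast-dividing epithelium, was at 10.4 and 10.6 CPM before injury, 99.6 and 80.7 at day 1 and 5940 and 5268 at day 3. That is a 61.9-fold rise after day 1 (log2 change 5.95 ± 0.12, adjusted p = 1.50e-10). KRT14, a basal cell keratin, stood at 1321 and 1329 CPM at day 1, close to its uninjured 1277 and 1108, and at 20681 and 19023 at day 3 (15.0-fold, log2 change 3.91 ± 0.10, adjusted p = 2.88e-10). The groups did not overlap for either gene, and KRT14 was within 2-fold of its uninjured level at day 1, whereas KRT16 had already risen by 3.103 on the log2 scale.

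KRT6A went from 3637 and 4057 to 14783 and 14258 CPM (3.77-fold), on top of a log2 rise of 5.09 by day 1. KRT17 went from 231 and 243 to 1456 and 1370 (5.96-fold), and KRT5, the basal partner of KRT14, from 5191 and 5301 to 14618 and 14651 (2.79-fold). The calcium-binding alarmins S100A8 and S100A9, released by stressed epithelium and by myeloid cells, rose further. S100A8 was at 2121 and 1389 CPM at day 1 and 4279 and 4684 at day 3, and S100A9 at 4802 and 3948 against 12800 and 12197. Of 9 tested stress keratins and alarmins, 6 rose, all past 2-fold, and 2 fell, with a median log2 change of 1.51. SLPI, a secreted inhibitor of neutrophil elastase, was among the 6, at 20.1 and 16.9 CPM against 66.3 and 63.5.

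The basal and limbal progenitor list had 16 tested genes, of which 10 rose and 3 fell, with a median log2 change of 0.68, and the list split into separate courses. CXCL14, a chemokine of resting epithelium, fell to 268 and 224 CPM by day 1 and was at 1385 and 1439 at day 3, against 1106 and 903 uninjured. KRT15, a keratin of the limbus and basal layer, had fallen 3.52 on the log2 scale by day 1 and regained little, at 309 and 283 against 516 and 506 CPM, far under its uninjured 3537 and 3251. GPHA2, a marker of limbal cells, stood at 194 and 215 CPM uninjured, 1.32 and 2.50 at day 1, and was not listed at day 3. TXNIP, an inhibitor of thioredoxin, regained part of its fall: 695 and 616 CPM uninjured, 17.2 and 16.9 at day 1, and 95.1 and 86.3 at day 3.

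Other epithelial regulators and matrix genes had small changes or none that passed the test. TP63, the master transcription factor of stratified epithelium, was at 106 and 107 CPM at day 1 and 119 and 128 at day 3, and PAX6, which specifies the eye, at 265 and 269 against 321 and 302. Both passed the test narrowly (adjusted p = 0.0452 and 0.0310) and lost the call under several alternatives. S100A2, a calcium-binding protein of basal keratinocytes, was at 2581 and 1780 against 2216 and 2684, and the groups overlapped. COL17A1, a hemidesmosome collagen, was at 366 and 396 against 439 and 417 and did not pass. PLAU, urokinase, went from 454 and 507 to 414 and 416 (adjusted p = 0.0382), TGFBI, a corneal matrix protein, from 2959 and 3022 to 2508 and 2395, and KRT24 from 2899 and 2856 to 4399 and 3577.

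Many early changes had turned back by day 3. The contrasts share the day 1 and the uninjured samples, so the counts that follow are descriptions with no test. A move here is an adjusted p under 0.05 and at least 2-fold; between day 1 and day 3, 15.1% of genes moved up and 10.3% down by that rule, and between uninjured samples and day 3, 11.7% and 10.5%. At day 1, 1524 genes (12.4% of those tested) were at least 2-fold above uninjured samples and 2119 (17.2%) at least 2-fold below. Of the 1524 early rises, 609 were at least 2-fold lower at day 3 than at day 1. In 498 of these day 3 showed no move against uninjured samples, in 103 it was still above, and in 8 it was below. No move can also mean a change of 2-fold or more that did not pass the test. A further 417 early rises stayed at least 2-fold above uninjured samples with no move after day 1. That group can include falls of under 2-fold that passed the test. Another 101 early rises rose again by at least 2-fold. Of the 2119 early falls, 969 (45.7%) rose at least 2-fold after day 1. Of these, 812 showed no move against uninjured samples at day 3, 78 were part of the way back and 79 past the uninjured level. Early falls that stayed at least 2-fold below with no move after day 1 numbered 542, and 68 fell further. Counting changes of any size at an adjusted p under 0.05, 1049 early rises (68.8%) fell after day 1. By the same count 1267 early falls (59.8%) rose. Late changes, in genes within 2-fold of uninjured samples at day 1, comprised 385 rises and 265 falls. With scaling to totals in place of TMM the balance turned, to 241 late rises and 467 late falls.

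**Figure D2:**
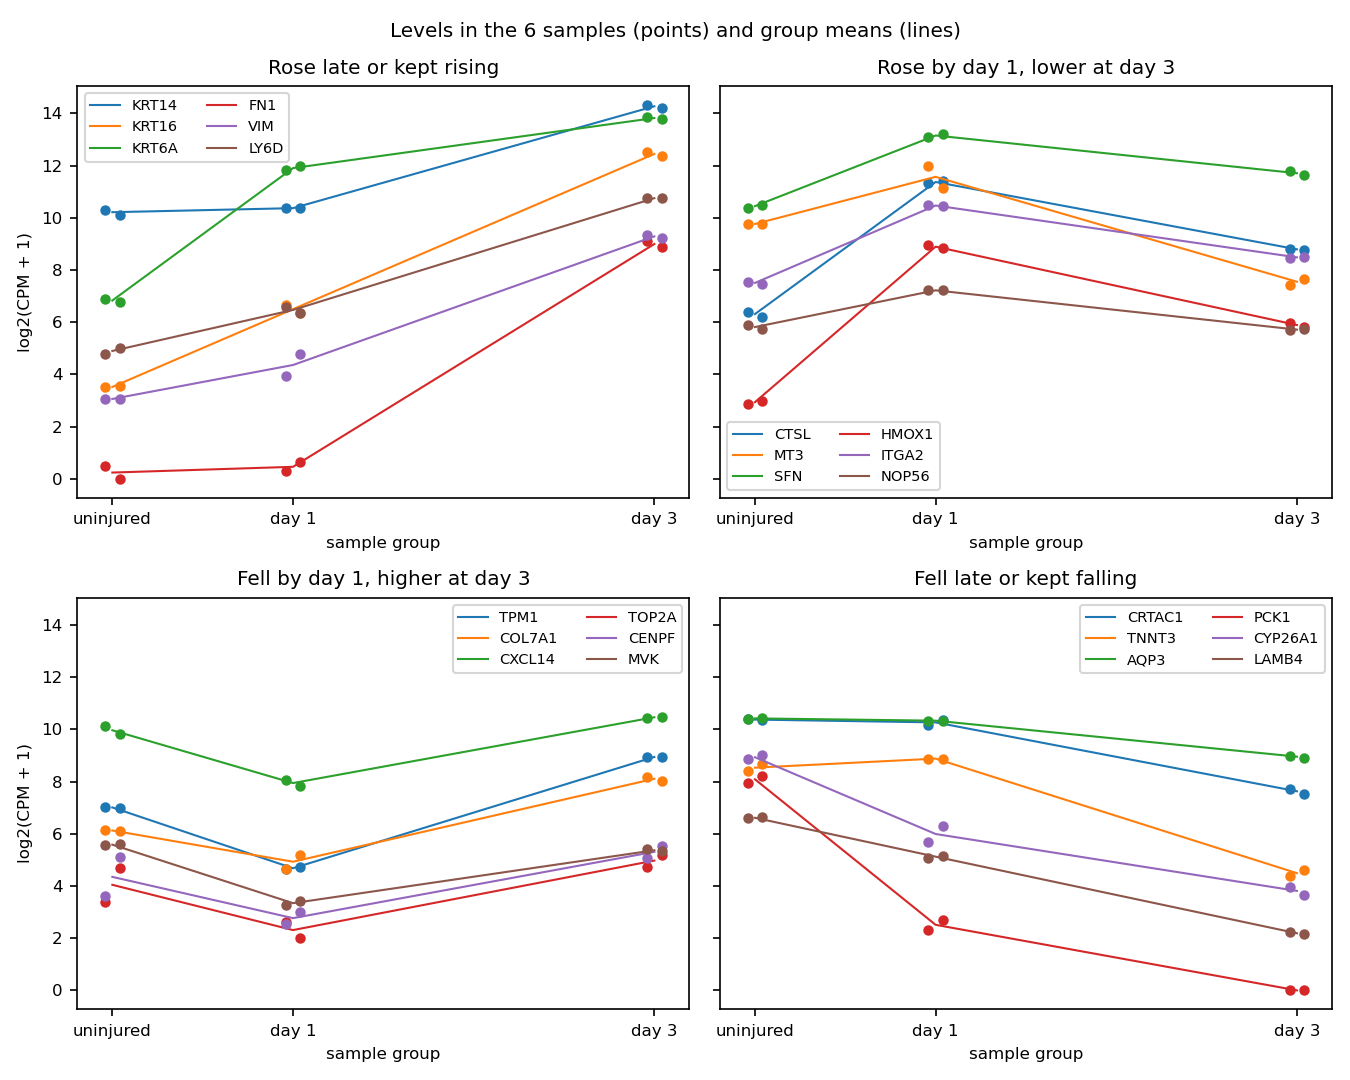
Levels of 24 genes as log2(CPM + 1) in the 6 samples (points) and as group means (lines), with days spaced to scale on the x axis. KRT14 and FN1 left their uninjured level only after day 1, CTSL and HMOX1 peaked at day 1, TPM1 and CXCL14 were lowest at day 1, and TNNT3 and CRTAC1 fell only after day 1; a point at 0 is a gene not listed in that sample.

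Matrix and mesenchymal-type genes were higher at day 3 than at day 1. Of 27 tested, 23 rose, 21 of them past 2-fold, and 3 fell, with a median log2 change of 3.17, or 3.05 without the 3 members that were not listed at day 1. With only genes of a mean of at least 10 CPM, 14 could be tested, 11 rose and 3 fell, with a median of 2.28. The summed level of the list went from 3807 and 3901 CPM at day 1 to 5439 and 5154 at day 3. By the trajectory rule 7 were late rises, FN1 among them, 4 were early rises that rose again, such as VIM, and 5 were early falls that reversed. FN1 encodes fibronectin, the provisional matrix that moving epithelial cells grip. It had 1 and 2 counts in the day 1 samples (0.2204 and 0.555 CPM) and stood at 552 and 472 CPM at day 3 (adjusted p = 2.73e-10). VIM, the intermediate filament protein of mesenchymal and migrating cells, was at 14.3 and 26.6 CPM at day 1 and 651 and 601 at day 3 (31.3-fold, log2 change 4.97 ± 0.17, adjusted p = 2.44e-09). Both day 3 samples lay far above both day 1 samples for each gene.

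COL7A1 encodes the collagen of the anchoring fibrils that hold the epithelium to the stroma. It fell by day 1 and then went past its starting level, at 70.3 and 67.3 CPM uninjured, 24.2 and 35.8 at day 1 and 288 and 262 at day 3. COL1A1, a chain of type I collagen, went from 0.881 and 0.832 to 57.1 and 43.9 CPM, which rests on 7 counts at day 1. The matricellular genes CCN1 and CCN2 went from 10.6 and 9.43 to 59.9 and 53.2 CPM and from 5.07 and 6.38 to 59.9 and 36.0. SNAI2, a transcription factor of epithelial migration, went from 36.4 and 33.02 to 131 and 130 CPM. The collagen cross-linker LOXL2 and the fibrillin gene FBN2 were not listed at day 1 and were at 10.8 and 11.3 and at 5.99 and 6.13 CPM at day 3. THBS1, a matrix glycoprotein that had risen early, moved the other way, from 355 and 349 to 160 and 188 CPM.

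Some genes of actin filaments and contraction also rose after day 1. TPM1, a tropomyosin, was at 131 and 125 CPM uninjured, 24.0 and 25.2 at day 1 and 491 and 492 at day 3, a 19.97-fold rise after day 1 (log2 change 4.32 ± 0.09, adjusted p = 1.50e-10). TAGLN, an actin cross-linking protein of contractile cells, went from 9.26 and 4.44 to 147 and 148 CPM, and CALD1, caldesmon, from 28.2 and 24.7 to 211 and 217. TMSB10, which binds actin monomers, was already higher at day 1 and went from 1984 and 1454 to 4814 and 5384 CPM. Of 25 actin and contractile genes tested, 12 rose, 8 past 2-fold, and 7 fell, with a median log2 change of 0.24, so the rise was in part of the list.

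Keratocyte and fibroblast markers moved with the matrix genes. Their summed level was 215.7 and 201.4 CPM at day 1 and 814.3 and 792.0 at day 3, against 559.5 and 426.8 uninjured, and 4 of 5 tested members rose. Most of the sum was DCN, decorin, at 202 and 186 CPM at day 1 and 683 and 686 at day 3. LUM, lumican, went from 1.32 and 0.555 to 29.2 and 29.7 CPM. The defining keratocyte gene KERA had 3 and 3 counts at day 1 and 5 and 8 at day 3, and THY1 had none at day 1 and 3 and 1 at day 3. PDGFRA and AQP1 were in none of the tables, which does not show that they were not expressed. Summed immune cell markers were at 257.8 and 228.9 CPM at day 1 and 211.6 and 181.0 at day 3, mostly LYZ, and PTPRC had 1 and 4 counts at day 1 and 1 and 10 at day 3. The part of such cells in the sums was not tested.

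To see in how many barcodes a gene was detected, each barcode was thinned to 1500 counts. That left out 177 and 237 shallower barcodes at day 1 and 35 and 19 at day 3. Groups of 2 cannot go below an exact p of 0.33, so shares of barcodes carry no test. Of the 1004 rises, 19 (1.89%) were seen in at least 50% of barcodes of both day 3 samples, 858 (85.5%) in under 10% of both, and 127 between. These shares are near those of all genes tested, of which 1.96% were in most and 83.4% in few day 3 barcodes. Of the 584 falls, 24 (4.11%) were seen in most day 1 barcodes, 361 (61.8%) in few and 199 between, against 1.99% and 81.5% of all genes. The share follows the level: the median CPM in the higher group was 17.2 for the rises, 47.6 for the falls and 23.2 for all genes. It says in how many barcodes a gene was seen, not in how many it changed.

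The rises seen in most barcodes included KRT14, detected in 33.2% and 31.7% of barcodes at day 1 and 84.4% and 84.7% at day 3, and KRT6A, from 74.3% and 78.2% to 93.1% and 93.2%. KRT16 went from 6.90% and 8.06% to 57.2% and 58.4%. LY6D, a membrane-anchored protein of stratified epithelium, went from 9.89% and 10.7% to 51.3% and 51.4% as its level went from 94.5 and 81.6 to 1740 and 1714 CPM. CSTA, a cysteine protease inhibitor of the cornified envelope, went from 18.0% and 13.7% to 65.6% and 67.6%, and NDUFA4L2, a hypoxia-responsive mitochondrial gene, from 14.6% and 14.2% to 56.6% and 53.2%. IFI27 and DCN were among them too.

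The falls seen in most day 1 barcodes were led by MT3, a zinc-binding metallothionein. It was at 4112 and 2255 CPM at day 1 and 172 and 203 at day 3, 16.99-fold lower (adjusted p = 8.57e-08) and also below its uninjured 860 and 879. Its share of barcodes went from 70.0% and 57.2% to 14.2% and 17.9%. CTSL, the lysosomal protease cathepsin L, was in 87.4% and 88.3% of barcodes at day 1 and 40.8% and 39.3% at day 3, as its level went from 2613 and 2700 to 447 and 440 CPM. SFN, the epithelial 14-3-3 protein, was still in 93.0% and 90.8% of day 3 barcodes, at 3519 and 3193 CPM against 8795 and 9479 at day 1. APOBEC3A, a cytidine deaminase induced by interferon and damage, went from 14210 and 14338 to 5135 and 4766 CPM, and the collagen receptor ITGA2 from 1445 and 1396 to 352 and 364.

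**Figure D3:**
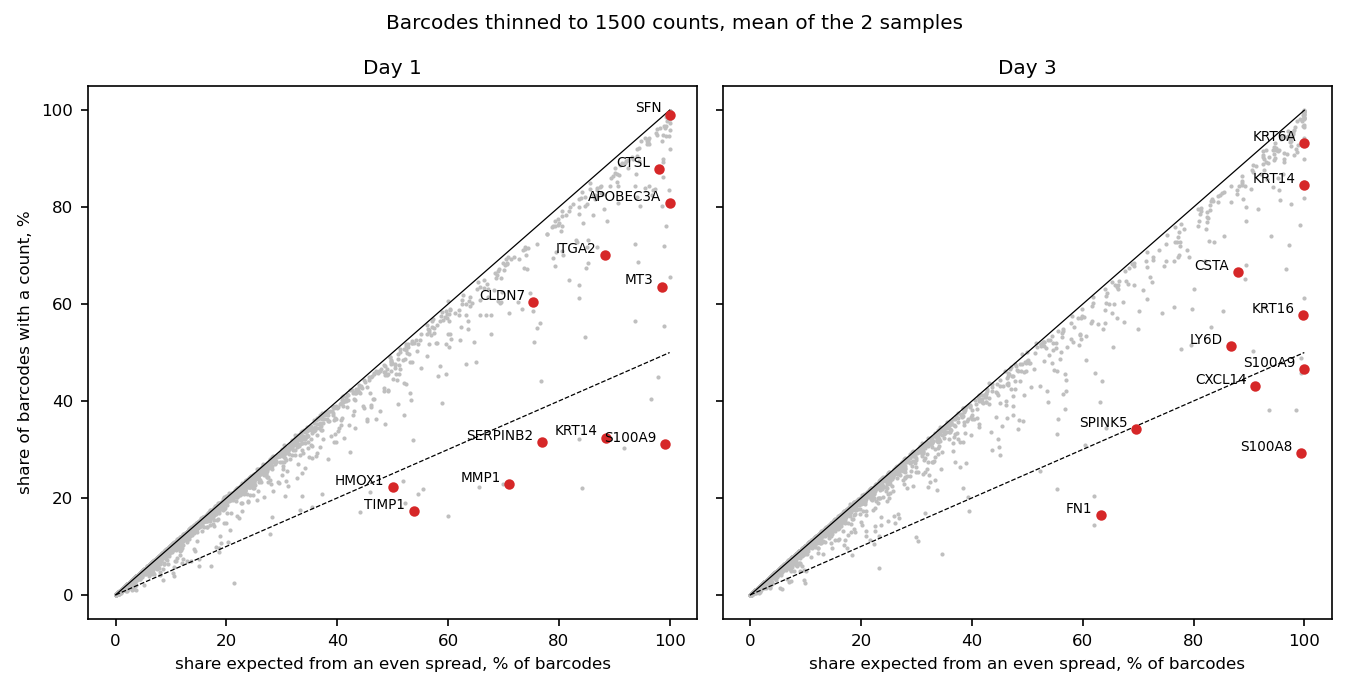
Each point is a gene tested; the x axis is the percentage of barcodes that would hold a count if the gene's thinned counts were spread evenly, and the y axis is the percentage that did, as the mean of 2 samples. The solid line marks equality and the dashed line 0.5 of it; FN1, S100A8 and S100A9 at day 3 and TIMP1, MMP1 and HMOX1 at day 1 lie under the dashed line.

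Counts of some genes were packed into few barcodes. A gene was called uneven where the share of barcodes was under 0.5 of what an even spread would give in both samples of the higher group. That held for 14 of the 1004 rises and 10 of the 584 falls, against 37 of all 12294 genes (0.301%). FN1 was in 15.8% and 17.2% of day 3 barcodes where an even spread gives 67.1% and 59.5%, and the 10% of barcodes richest in it held 94.8% and 91.7% of its thinned counts. S100A8 was in 27.6% and 30.8% of day 3 barcodes where an even spread gives 99.2% and 99.5%. KRT78, a keratin of suprabasal cells, was in 8.01% and 8.29% against 19.8% and 16.96%. Uneven falls included MMP1, TIMP1, SERPINB2 and HMOX1, listed with their levels further on.

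Counts of other genes were compared between day 3 barcodes with and without VIM. The genes were chosen after their values were seen, and the shares are descriptions. Free RNA can put counts of abundant genes such as KRT5 and KRT14 into any barcode, and no background share was estimated for them. Of 374 and 352 thinned barcodes with VIM, every one in replicate 1 and 99.7% in replicate 2 had KRT5, against 94.2% and 95.1% of barcodes without VIM. KRT14 was in 99.7% and 97.7% against 76.0% and 78.0%. FN1 was in 34.2% and 32.7% of barcodes with VIM and 5.82% and 9.33% of those without, TAGLN in 30.7% and 34.9% against 4.66% and 4.30%, and TPM1 in 61.5% and 61.9% against 22.6% and 23.1%. CXCL14 was in 78.1% and 81.2% against 24.3% and 23.8%. The keratocyte and fibroblast markers differed among themselves. DCN was in 75.4% and 73.0% of barcodes with VIM and 38.1% and 40.03% of those without, and COL1A1 in 11.5% and 8.52% against 2.04% and 2.15%. LUM was in 4.01% and 3.41% against 4.08% and 3.87%. Barcodes with VIM had fewer counts before thinning, a median of 3632 and 3353.5 against 4921 and 4615.

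COL1A1 was in 26.2% and 18.9% of barcodes with FN1 and 1.46% and 1.27% of those without. Among the 57 and 45 barcodes with COL1A1, every one in replicate 1 and 97.8% in replicate 2 had KRT5, against 96.0% and 96.6% of barcodes without COL1A1. FN1 was in 77.2% and 75.6% of them, DCN in 70.2% and 60.0% against 50.2% and 50.7% without COL1A1, and LUM in 3.51% and none.

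SPINK5, which encodes the protease inhibitor LEKTI that restrains shedding of cornified cells, marked other barcodes. It was at 4.38 and 11.9 CPM uninjured, not listed at day 1, and at 1054 and 1177 CPM at day 3, in 34.3% and 34.2% of barcodes. VIM was in 9.34% and 7.80% of barcodes with SPINK5 and 48.8% and 47.0% of those without. S100A8 was in 47.5% and 57.4% against 17.2% and 16.96%, and S100A9 in 78.0% and 75.8% against 32.3% and 29.3%. KRT16 was in both kinds of barcode, in 65.9% and 66.0% of those with SPINK5 and 54.3% and 49.4% of those with VIM. The part of free RNA in these shares was not tested.

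**Figure D4:**
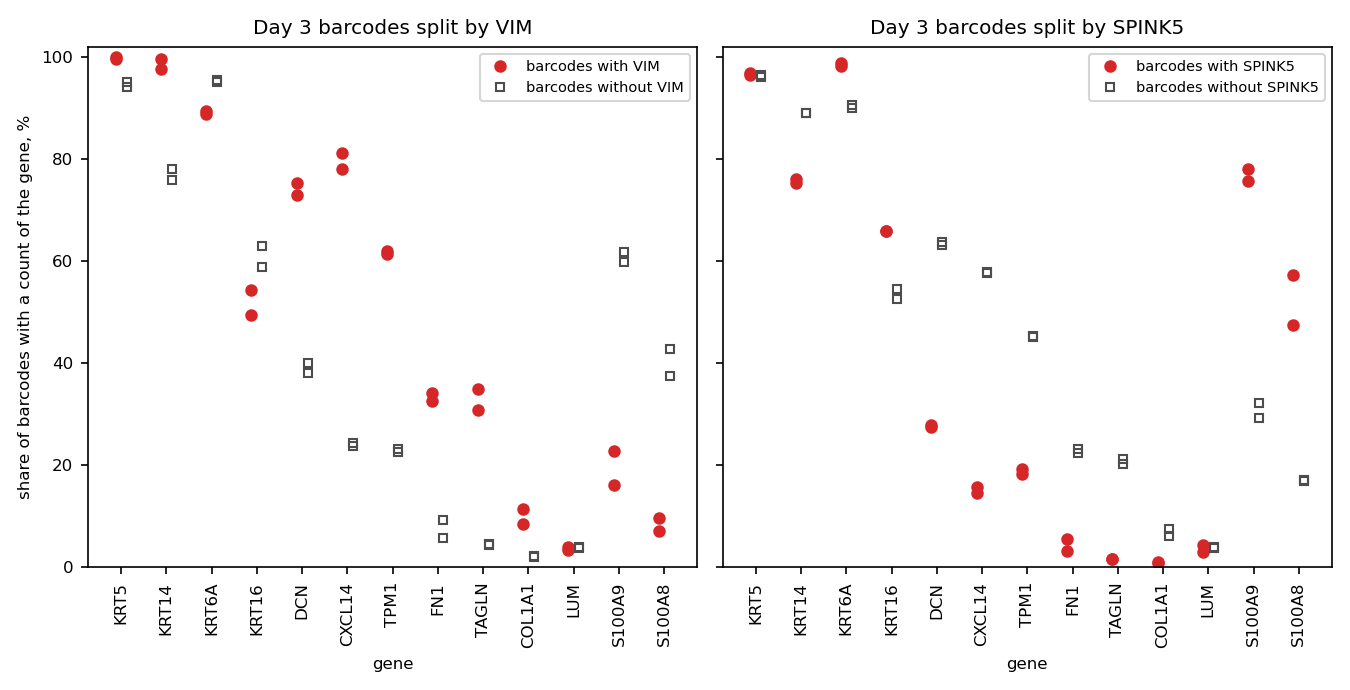
Percentage of day 3 barcodes, thinned to 1500 counts, that held a count of each gene, in barcodes with (filled circles) and without (open squares) a count of VIM (left) or SPINK5 (right); each symbol is 1 of the 2 samples. FN1, TAGLN, TPM1 and CXCL14 are more frequent with VIM and less frequent with SPINK5, S100A8 and S100A9 the reverse, and KRT5 is frequent in all.

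Genes of cornification and barrier were also among the rises after day 1. Of 20 superficial barrier, cornified envelope and mucin genes tested, 12 rose, 6 past 2-fold, and 4 fell, with a median log2 change of 0.41. By the trajectory rule 3 were late rises, 2 were early rises that rose again and 2 were early falls that reversed. KRT78 went from 3.09 and 5.55 to 189 and 170 CPM, CSTA from 262 and 192 to 1646 and 1962, and EVPL, envoplakin of the cornified envelope, from 114 and 105 to 364 and 347. KRT80 went from 1.32 and 1.66 to 22.8 and 13.2 CPM. KRTDAP, a keratinocyte differentiation protein, was not listed before day 3 and was at 34.8 and 44.4 CPM in 1.23% and 1.91% of barcodes. The arginine-degrading enzyme ARG1 was likewise listed only at day 3, at 69.3 and 91.0 CPM, and so was the aminopeptidase LVRN, at 46.5 and 47.1. NCCRP1 went from 5.07 and 5.83 to 122 and 117 CPM. MUC22, a mucin that had risen early, went down from 134 and 145 to 23.0 and 13.7 CPM.

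KRT7 and KRT19, keratins of conjunctival and simple epithelium, were higher at day 3. KRT7 was at 53.3 and 54.9 CPM at day 1 and 418 and 398 at day 3, and KRT19 at 1651 and 1526 against 3937 and 3800. Conjunctival and goblet cell markers together summed to 3458 and 3143 CPM at day 1 and 5805 and 5839 at day 3, with 3 of 5 tested members higher and 1 lower. The goblet cell genes MUC5AC and TFF3 were in none of the tables, which does not show that goblet cells were absent. KRT19 was in 75.5% and 75.4% of the day 3 barcodes with lower KRT12 share and 15.7% and 16.4% of those with higher share, when barcodes of each sample were split at the median KRT12 share (0.0913% and 0.0832% of counts). The part of conjunctival cells in these levels was not tested.

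Genes of cell division were low at day 1 and high at day 3. All 26 mitosis genes tested were higher at day 3, 21 of them past 2-fold, with a median log2 change of 3.15, or 2.64 without the 7 that were not listed at day 1. Of the 17 that had fallen at least 2-fold by day 1, 17 rose at least 2-fold again, against 45.7% of early falls over all genes. Their summed level was 283 and 463 CPM uninjured, 208 and 201 at day 1 and 682 and 762 at day 3. TOP2A, the topoisomerase of dividing cells, was at 9.56 and 24.8 CPM uninjured, 5.07 and 3.05 at day 1 and 25.8 and 35.8 at day 3 (adjusted p = 0.000182), and CCNB1, cyclin B1, at 1.102 and 1.94 against 19.6 and 25.5 (15.0-fold, adjusted p = 1.26e-06). The kinase AURKB and the kinesins KIF20A and KIF2C were not listed at day 1 and were at 4.38 and 8.09, 4.14 and 6.13, and 4.61 and 5.64 CPM at day 3. With only genes of a mean of at least 10 CPM, 9 mitosis genes could be tested and all 9 rose.

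The counts lay in a minority of barcodes. After thinning, 90 and 80 barcodes at day 3 (8.48% and 7.63%) had at least 3 counts of mitosis genes, against 15 and 15 at day 1 (1.15% and 1.46%) and 21 and 35 uninjured (1.73% and 2.92%). Those barcodes held 60.5% and 58.8% of the day 3 mitosis counts. KRT14 was in 96.7% and 96.3% of them, KRT5 in every one. Of all thinned day 3 barcodes, 84.4% and 84.7% had KRT14 and 96.2% and 96.7% had KRT5. KRT12 was in 54.4% and 52.5% of the barcodes with at least 3 mitosis counts. For comparison, it was in 61.6% and 60.8% of thinned day 3 barcodes with KRT16 and 61.2% and 61.0% of those without. Of 27 DNA replication genes, 21 rose, 9 past 2-fold, and 1 fell, with a median log2 change of 1.26. TYMS, which makes thymidylate, went from 12.3 and 7.49 to 93.3 and 88.3 CPM, RRM2, a subunit of ribonucleotide reductase, from 2.86 and 1.39 to 25.1 and 32.6, and the helicase subunit MCM3 from not listed to 11.1 and 11.8. With the 10 CPM minimum 6 replication genes rose and 1 fell.

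**Figure D5:**
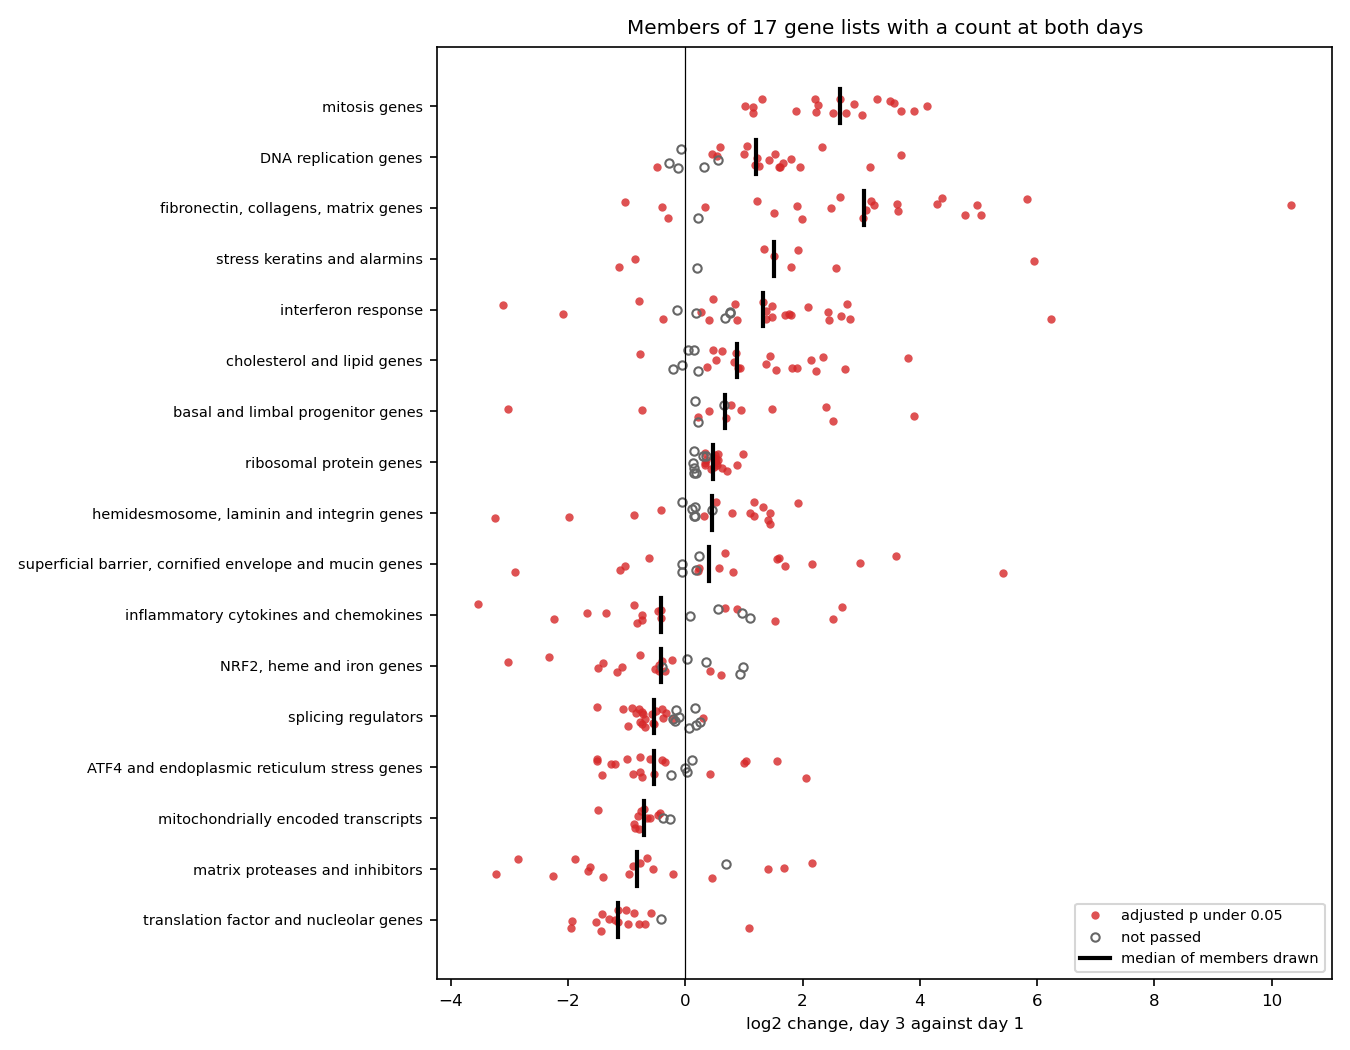
Log2 change at day 3 against day 1 of the members of 17 gene lists that had a count at both days; filled points passed an adjusted p under 0.05, open points did not, and the bar is the median of the points drawn. Mitosis and matrix genes lie furthest to the right (medians 2.64 and 3.05), and translation factor and nucleolar genes furthest to the left (median -1.14).

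Genes of ribosome assembly and translation went the other way. Of 17 translation factor and nucleolar genes tested, 15 fell, 7 past 2-fold, and 1 rose, with a median log2 change of -1.14, and 9 of the 12 that had risen at least 2-fold by day 1 reversed. NOP16, a nucleolar protein, was at 34.9 and 30.4 CPM uninjured, 133 and 135 at day 1 and 32.2 and 37.3 at day 3, and NOP56, a core protein of the particles that modify ribosomal RNA, at 58.8 and 52.2, 148 and 149, and 51.1 and 52.2. Both were back at their uninjured levels. NCL, nucleolin, went from 643 and 594 to 283 and 279 CPM and EIF4A1, the helicase of translation initiation, from 1901 and 1975 to 863 and 819. The exception was EIF4EBP1, a repressor of cap-dependent translation, which went from 58.8 and 59.7 to 125 and 126.

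Ribosomal protein genes did not share that course: of 25 tested, 18 rose and 0 fell, by a median log2 change of 0.47, and 12 rose without day 3 replicate 2. RPLP0 went from 2618 and 2627 to 5266 and 5123 CPM, and RPL10 from 3309 and 3048 to 5280 and 5102. Of 13 mitochondrially encoded transcripts, 11 fell and 0 rose, with a median log2 change of -0.70. MT-ATP6, a subunit of ATP synthase, went from 9960 and 9976 to 5918 and 5520 CPM. Of 29 splicing regulators, 20 fell and 1 rose, with a median of -0.54. SRSF7 went from 498 and 523 to 186 and 175 CPM, below its uninjured 379 and 381, and SRSF2 from 493 and 501 to 260 and 268.

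Stress genes that peaked at day 1 fell. HMOX1, heme oxygenase, was at 6.38 and 6.98 CPM uninjured, 496 and 456 at day 1 and 61.7 and 55.4 at day 3 (8.13-fold lower, log2 change -3.02 ± 0.09, adjusted p = 7.78e-10). TXNRD1, thioredoxin reductase, went from 199 and 210 to 40.5 and 41.7 CPM, near its uninjured 28.5 and 26.5, and the transferrin receptor TFRC from 237 and 218 to 81.7 and 80.7. Of 20 NRF2, heme and iron genes tested, 13 fell, 4 past 2-fold, and 2 rose, with a median of -0.42. ATF4, the main transcription factor of the integrated stress response, went from 629 and 619 to 237 and 227 CPM and HSPA5, the chaperone BiP of the endoplasmic reticulum, from 777 and 766 to 328 and 316. Both were back at uninjured levels of 224 and 209 and of 335 and 331. Their list had 14 falls and 5 rises among 23 genes, and 9 falls and 5 rises with DESeq2.

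More inflammatory genes fell than rose after day 1, and interferon response genes were mostly higher. Of 22 cytokine and chemokine genes tested, 13 fell and 5 rose (7 and 4 with DESeq2), with a median log2 change of -0.44. Most stayed above uninjured samples, with a median log2 change of 1.44 at day 3 against them. Of 17 early rises in the list, 6 reversed and 10 stayed at least 2-fold up with no move after day 1. The summed level was 2220 and 2030 CPM uninjured, 3888 and 3928 at day 1 and 3977 and 4135 at day 3. CSF3, the granulocyte growth factor, was listed only at day 1, at 22.0 and 13.6 CPM. CXCL16 went from 117 and 120 to 26.0 and 24.3 CPM, and NFKBIA, the feedback inhibitor of NF-kappaB, from 552 and 644 to 181 and 194. PTGS2, cyclooxygenase-2, fell from 1915 and 1995 to 1439 and 1386 against 485 and 499.2 uninjured, and the neutrophil chemokine CXCL8 went from 110 and 113 to 59.4 and 75.3. CXCL6, another neutrophil chemokine, rose from 145 and 115 to 355 and 401.

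Of 29 interferon response genes tested, 20 rose, 12 past 2-fold, and 4 fell, with a median of 1.32. IFI27 went from 719 and 487 to 2058 and 1861 CPM, IFI6 from 215 and 160 to 715 and 592, and the antiviral RNA sensor OAS1 from 8.81 and 9.99 to 55.3 and 46.8. The ubiquitin-like ISG15 went from 60.2 and 61.9 to 185 and 131 CPM, and B2M, the light chain of MHC class I, from 1462 and 1446 to 2712 and 2544. The exonuclease ISG20 and the factor IRF7 went against the list. ISG20 was at 16.3 and 16.6 CPM uninjured, 460 and 426 at day 1 and 50.4 and 52.0 at day 3 (8.66-fold lower, adjusted p = 5.19e-10), and IRF7 went from 51.1 and 56.6 to 15.2 and 10.1.

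Matrix proteases moved in both directions. Of 20 proteases and inhibitors tested, 13 fell, 7 past 2-fold, and 6 rose, 5 past 2-fold, with a median of -0.71. The interstitial collagenase MMP1 was at 50.2 and 47.8 CPM uninjured, 762 and 591 at day 1 and 199 and 233 at day 3, and the stromelysin MMP3 went from 16.3 and 15.5 to 3.45 and 3.19. TIMP1, their inhibitor, went from 482 and 405 to 125 and 117 CPM. The plasminogen activator PLAT went from 163 and 176 to 21.4 and 25.5, and the urokinase inhibitor SERPINB2 from 1084 and 1102 to 359 and 352. The gelatinase MMP2 and the collagenase MMP13 were listed only at day 3, at 23.5 and 25.0 and at 17.3 and 21.8 CPM, in 3.49% and 4.39% and in 2.54% and 2.10% of barcodes. The gelatinase MMP9 went from 5.73 and 4.16 to 23.5 and 21.8. With the 10 CPM minimum 3 rose and 10 fell.

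Of 15 serpins tested, 9 fell, 2 past 2-fold, and 4 rose, 3 past 2-fold, with a median of -0.42. SERPINB1, an inhibitor of neutrophil proteases, went from 3252 and 3463 to 1441 and 1478 CPM, still above its uninjured 137 and 173. SERPINB6 went from 47.4 and 40.5 to 183 and 179, SERPINH1, the collagen chaperone HSP47, from 7.27 and 6.38 to 45.1 and 41.7, and SERPINB13 from not listed to 15.7 and 14.7.

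Adhesion genes moved in both directions, as did all genes tested, of which 30.5% were higher and 28.8% lower. Of 21 hemidesmosome, laminin and integrin genes tested, 11 rose and 4 fell, with a median of 0.46. ITGB4, the hemidesmosome integrin, went from 191 and 189 to 396 and 419 CPM, and ITGB6, an epithelial integrin of wounds that binds fibronectin, from 48.5 and 45.2 to 102.2 and 110. LAMB4 fell at both steps, from 96.0 and 97.7 uninjured to 33.1 and 34.7 and then to 3.68 and 3.43. Of 19 desmosome and tight junction genes, 5 rose and 9 fell, with a median of -0.23; with the 10 CPM minimum 8 rose and 8 fell. The tight junction genes CLDN7, OCLN and CLDN1 fell, CLDN7 from 1026 and 1102 to 338 and 301 CPM and OCLN from 94.1 and 110 to 33.6 and 30.2, both back at uninjured levels. JUP, plakoglobin, rose from 265 and 248 to 559 and 545.

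Of 25 cholesterol and lipid genes tested, 19 were higher at day 3 than at day 1, 9 past 2-fold, and 1 was lower, with a median of 0.91. By the trajectory rule 6 were late rises and 3 were early falls that reversed. LSS, lanosterol synthase, went from 6.61 and 4.99 to 35.5 and 42.7 CPM, MVK, mevalonate kinase, from 8.59 and 9.71 to 41.7 and 39.0, and the desaturases SCD and FADS2 from 30.4 and 24.4 to 121 and 139 and from 2.20 and 0.832 to 24.2 and 20.8. MVK had fallen early, from 46.6 and 47.3, and was back. Retinoic acid genes had no shared direction, with 5 rises and 9 falls among 17 and a median of -0.51. The retinol uptake receptor STRA6 went from 4.85 and 4.44 to 13.4 and 14.5. The retinoic acid hydroxylase CYP26B1 had risen from 5.98 and 9.24 to 324 and 327 CPM by day 1. It went part of the way back, to 34.8 and 41.0, still above its uninjured level. Its relative CYP26A1 fell at both steps, from 460 and 517 to 50.2 and 78.0 and to 14.7 and 11.5.

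Late falls, in genes near their uninjured level at day 1, included genes of high level in both earlier groups. TNNT3, a skeletal troponin T, was at 337 and 405 CPM uninjured, 470 and 470 at day 1 and 19.8 and 23.3 at day 3 (21.8-fold lower, adjusted p = 6.25e-10). CRTAC1, a secreted cartilage matrix protein, was at 1330 and 1324, 1162 and 1306, and 210 and 184 CPM, and its share of barcodes went from 58.9% and 63.8% at day 1 to 22.6% and 22.1%. The carbonic anhydrase CA6 went from 53.3 and 55.2 to 4.38 and 1.72, and the glycerol channel AQP3 from 1286 and 1292 to 508 and 482. Some genes fell at both steps until they were not listed: PCK1, the key enzyme of gluconeogenesis, was at 248 and 296 CPM uninjured, 3.97 and 5.55 at day 1, and not listed at day 3, and PENK, proenkephalin, at 93.5 and 78.0, 20.9 and 19.1, and not listed.

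Among other rises after day 1, the xenobiotic-metabolising enzyme CYP1B1 went from 6.39 and 7.77 to 170 and 183 CPM (25.0-fold), and its relative CYP1A1 was listed only at day 3, at 18.7 and 15.7. The mitophagy receptor BNIP3 went from 19.2 and 20.5 to 142 and 148 CPM, and NDUFA4L2 from 114 and 118 to 762 and 715, against 296 and 254 uninjured. Both are known targets of hypoxia signalling; VEGFA, another, moved down from 107 and 106 to 50.7 and 56.2. SPP1, osteopontin, had 1.98 CPM in 1 day 1 sample, was not listed in the other, and was at 71.8 and 84.6 at day 3. SCGB3A1, a secretoglobin of secretory epithelium, was listed at day 1 at 279 and 103 CPM and not at day 3; it was in only 2.99% and 1.94% of day 1 barcodes.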

How the data were processed

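The authors deposited, for each sample, a gene by barcode table of whole-number counts and a table of isoforms; per the labels' protocols, cells were captured on the 10x Chromium platform and libraries made by HIT-scISOseq. Cell Ranger and a NextSeq kit are named without version or role; which aligner, build and annotation were used is not given in the sources used here. Only the gene counts were used, and isoform tables were not used here. Genes seen in 1 to 3 barcodes of a sample are far fewer than those in 4 to 6, so the tables appear to list only genes above a minimum, and no detection floor was applied.

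Counts were summed per sample over all barcodes and fitted together for 6 samples in edgeR 4.0.16 (R 4.3.3): TMM scaling, filterByExpr, quasi-likelihood F test, glmTreat against 2-fold, group as the only term, Benjamini-Hochberg threshold 0.05. TMM factors lay between 0.888 and 1.19, and the biological coefficient of variation was 0.0651. On simulated counts the scripts recovered the changes put in. The simulation gave all groups 1 spread, near the fitted one, and changed few genes. It therefore does not cover the larger spread at day 1 or the large share of genes called here. For trajectories a move was an adjusted p under 0.05 and at least 2-fold. Scrublet (scanpy 1.11.5) called 40 of 4913 injured barcodes (0.814%) as doublets; these, and 58 under 500 counts, were left out only as alternatives, and at most 2 barcodes were shared between any pair of samples. Thinning took 1500 counts per barcode without replacement. DESeq2 1.42.0 was an alternative, beside scaling to totals, other filters, folds and thinning depths, and leaving out each sample.

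Members and the 33 gene and 7 marker lists were chosen with earlier results of these data known; the spelling of mitochondrial genes was matched to the tables afterwards. Named genes were up to 4 members per list with the largest change, the 10 highest and lowest changes past 2-fold at 32 CPM or more with groups that did not overlap, and 6 per trajectory or detection class (194 genes, some left out). Another 65 were named after their values were seen, and a few of all these genes are not reported here: KRT5, KRT12, KRT3, KRT15, KRT19, KRT7, S100A8, S100A9, APOBEC3A, COL1A1, LUM, DCN, TOP2A, TYMS, CCNB1, CDK1, CXCL14, TIMP1, MMP1, MMP3, MMP9, SERPINB2, CYP1B1, CYP1A1, CYP26A1, IFI27, IFI6, ISG15, OAS1, IRF7, MVK, SCD, FDFT1, CXCL6, CXCL8, PTGS2, NFKBIA, CXCL16, NCL, EIF4A1, EIF4EBP1, ATF4, HSPA5, SERPINB1, SNAI2, BNIP3, ITGB4, ITGB6, TMSB10, JUP, EVPL, MDM2, PLAUR, THBS1, ALDH3A1, STRA6, B2M, S100A2, PLAU, TP63, PAX6, TGFBI, COL17A1 and KRT24.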

Additional observations from a re-analysis of the deposited data

How the results depend on the processing

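Over 3826 alternative values of 259 named genes, 58 lost the call, in 16 genes, among them ADAP2, CCL20, CHAC1, EREG, IFI44L, IL1B, IL36A, KRT24, MMP7, PADI1, PAX6, PLAU, TGFBI, TP63 and WNT5A. S100A2, which did not pass, ran from -0.076 without day 1 replicate 2 (reversed) to 0.46 without day 1 replicate 1, and 3 values in S100A2 and COL17A1 gained a call. DESeq2 gave 2352 genes lower, 386 more than 2-fold higher and 213 lower, with 284 rises and 94 falls in few barcodes. A mean of at least 10 CPM gave 541 and 374 past 2-fold, 384 early rises reversed, 471 early falls reversed, 200 late rises and 128 late falls. Scaling to totals gave 241 late rises and 467 late falls. With a fold of 1.5 early rises reversed, early falls reversed, late rises and late falls numbered 1381, 1630, 635 and 525, and with 3 169, 498, 245 and 162. Falls seen in most barcodes numbered 10 at 1000 counts, 39 at 2500 and 44 unthinned, and rises 42 unthinned; at 1500 they were 24 and 19. Leaving out 1 sample gave 3176 to 3706 genes higher and 2973 to 3480 lower, 752 to 928 and 443 to 530 past 2-fold, 583 to 615 early rises and 876 to 1032 early falls reversed, 360 to 462 late rises and 235 to 300 late falls, and 632 to 757 rises and 261 to 326 falls in few barcodes. With a replicate block the counts were 3568 and 3391, past 2-fold 845 and 496, and 6925 of 7294 calls were shared. Same-numbered samples deviated together weakly or not at all (correlations 0.169, 0.139 and 0.00777), so the numbers were not taken as pairs. Groups of 2 limit every test here.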

Other observations

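Signalling lists not described above held smaller or mixed changes between day 1 and day 3. Over all genes tested, 30.5% were higher at day 3 and 28.8% lower. Of 12 EGF family genes tested, 8 fell and 4 rose, with a median log2 change of -0.45; HBEGF, a growth factor that drives epithelial wound closure, went from 433 and 384 to 136 and 125 CPM, and 4 of the 6 early rises in the list reversed. DUSP6, a phosphatase that limits ERK signalling, went from 183 and 170 to 28.6 and 23.5 CPM, below its uninjured 49.8 and 44.3, and FOSL1, an AP-1 factor, from 172 and 181 to 47.4 and 46.8. The other immediate early and AP-1 genes were mixed, with 8 rises and 10 falls among 23 and, without day 3 replicate 1, 9 and 9. SMAD7, the feedback inhibitor of TGF-beta signalling, rose from 9.48 and 10.5 to 70.2 and 76.3 CPM. The TGF-beta and BMP list had 8 rises and 8 falls among 25, near the shares of all genes. Its balance moved under 7 alternatives.

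Of 20 Wnt genes, 10 rose and 2 fell, with a median of 0.71; SFRP1, a secreted Wnt inhibitor, went from 8.81 and 8.60 to 56.9 and 50.3 CPM. Of 15 Notch genes, 8 rose and 4 fell, with a median of 0.88; the ligand DLL1 went from 28.9 and 30.5 to 4.84 and 5.39, back at its uninjured 4.58 and 4.19, and the glycosyltransferase LFNG from 1.32 and 0.832 to 11.5 and 9.07. Among 23 p53 targets, 8 rose and 10 fell, and 8 and 8 with DESeq2; MDM2 went from 257 and 270 to 109 and 106 and TP53INP1 from 5.07 and 4.16 to 41.5 and 48.6. Of 11 heat shock genes, 6 rose and 1 fell (4 with scaling to totals), and HSPB1 went from 1566 and 1456 to 3071 and 2998. Of 24 proteasome genes 10 rose and 1 fell, with a median of 0.07 that turned to -0.01 with scaling to totals. Of 15 YAP and TEAD targets 6 rose and 4 fell, with a median of 0.07 that also turned. Of 13 glycolysis genes 4 rose and 4 fell, near the shares of all genes (30.5% higher and 28.8% lower). Of 11 nuclear oxidative phosphorylation genes 6 rose and 3 fell, the falls near that share. Of 18 corneal differentiation genes 5 rose, near that share, and 9 fell.

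Melanocyte markers summed to 24.2 and 32.7 CPM at day 1 and 37.8 and 27.5 at day 3, and vascular cell markers to 5.73 and 3.33 against 3.68 and 3.43. No red blood cell transcript was listed in any sample, which does not show that such cells were absent.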
